A study of Mus musculus with 23 samples.

Results

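This comparison sets cells recovered from the ischemic mouse brain against cells recovered from the blood of the same kind of recipient, both 5 days after middle cerebral artery occlusion (MCAO, an experimental ischemic stroke). It was made up of every library labelled brain day 5 (6 libraries) and every library labelled blood day 5 (6 libraries), 12 of the 23 in the series. The remaining libraries, 5 from culture (baseline) and 6 from blood on day 1, entered the model only to share its estimate of the spread. All 4 groups are labelled ILC2s (group 2 innate lymphoid cells) of the genotype B6.Cg-Tg(CAG-GFP)Smoc, a line in which the broadly active CAG promoter drives GFP. According to the labels' protocols, donors were young males (8 to 10 weeks old), transgenic and wild-type, treated with IL-33 every 2 days over 7 days. Lineage-negative CD25+ cells of their marrow and spleen were expanded in culture for 14 days with IL-33 and the common-gamma-chain cytokines IL-2, IL-7 and IL-15, and cells of the phenotype CD45+Lin-ST2+KLRG1+CD127+ were injected into a vein 6 hours after MCAO. How the transferred cells were told apart from host cells on recovery, the strain and age of the recipients, and whether 2 replicates ever shared an animal are details the labels used here do not give, so p-values measure only the spread between these libraries, which may be technical. Each library is labelled with 1 of 2 batches, replicates 1 to 3 of both groups in batch 1 and replicates 4 to 6 in batch 2.

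ILC2s are tissue-resident lymphocytes that lack antigen receptors. The transcription factors GATA3 and RORα establish them, the alarmins IL-33, IL-25 and TSLP activate them, and they are best known as a source of IL-5, IL-13 and amphiregulin. In the central nervous system they have been described mainly in the meninges and around the choroid plexus, the ventricular epithelium that makes cerebrospinal fluid. The ischemic brain also holds reactive astrocytes, oligodendrocytes, vessel cells, and microglia, the resident macrophages that take up debris.

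The libraries held 11.6 to 58.1 M recovered reads each, the batch 2 libraries being the deeper ones, and values are normalized counts, a signal in which each read count was divided by 1 factor per library. Of 15268 genes tested, 7306 (47.9%) differed between brain and blood at an adjusted p under 0.05. Of all genes tested, 5123 (33.6%) were higher in brain and 2183 (14.3%) were lower, and in 5398 genes (35.4%) the 6 brain and 6 blood libraries did not overlap in either direction. The same sign held in both batches for 7253 of the called genes (99.3%). The differences were large: 3627 called genes were higher by more than 3 log2 units and 893 were lower by more than 3. With so many genes called, a list that moved as often as these background shares moved no more than genes in general.

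Brain replicate 2 stood apart from the other brain libraries, and brain replicates 1 and 3 were far closer to each other than any other pair. Across genes, which are not independent replicates, replicate 2 correlated with the other brain libraries at 0.755 to 0.838 on log2 values, and replicates 1 and 3 correlated at 0.965. Without replicate 2, 5248 genes were higher and 2215 lower; with replicates 1 and 3 averaged into 1, 4977 were higher and 2020 lower.

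The split between directions depends on how libraries are scaled. The median log2 difference over all genes tested was 0.47, and with equal library totals it was 0.08. Higher genes made up 70.1% of the calls as deposited, 59.5% with equal library totals and 61.4% with TMM scaling. Counts with equal library totals are given beside the main ones for several lists with small differences.

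**Figure D1:**
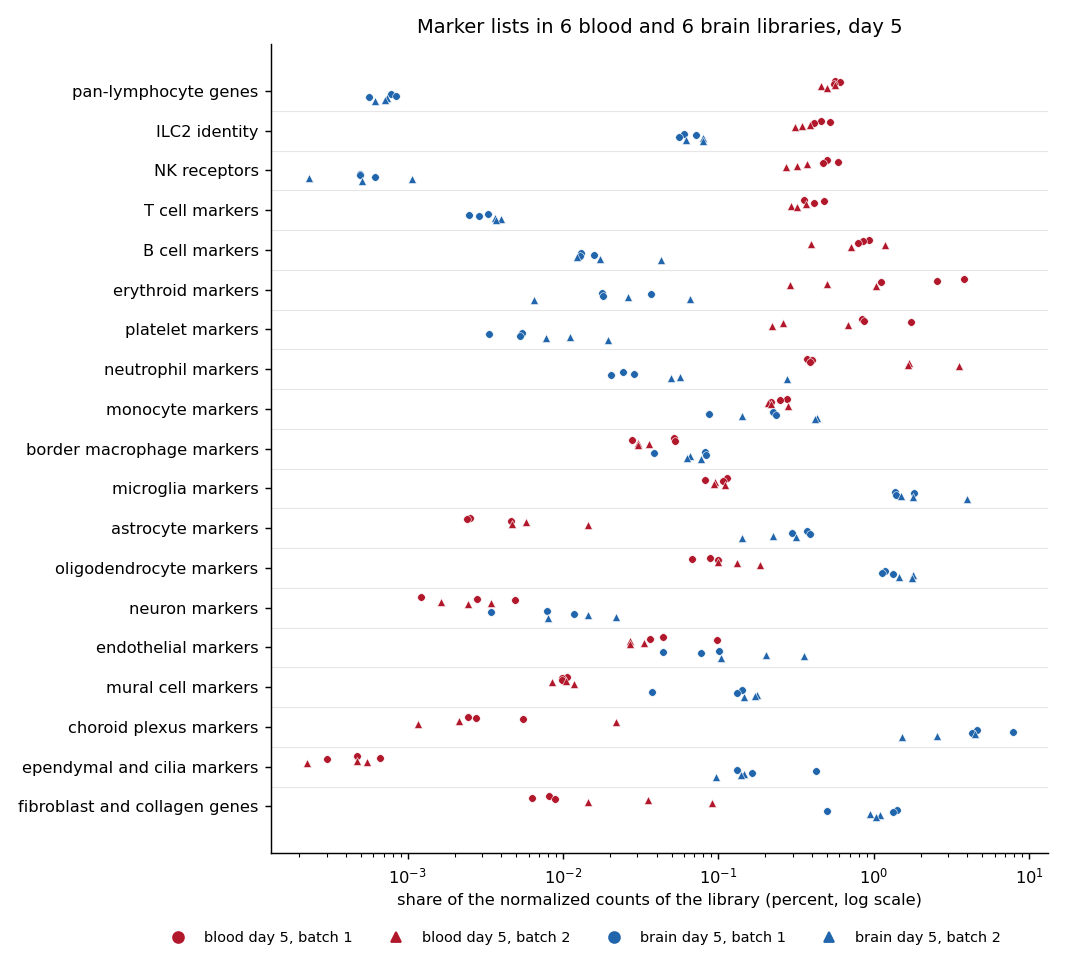
Share of each library's normalized counts (percent, log scale) taken by 19 marker lists. Each point is 1 library, red for blood day 5 and blue for brain day 5, with circles for batch 1 and triangles for batch 2. Pan-lymphocyte genes took 0.457 to 0.603% of the blood libraries and 0.00056 to 0.00084% of the brain libraries, while choroid plexus markers took 1.52 to 7.89% of the brain libraries.

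The label was checked first, against genes that lymphocytes share. All 9 tested pan-lymphocyte genes were lower in brain, with a median log2 difference of -9.62. Their summed normalized count ran from 78914 to 121870 in the blood libraries and from 122.2 to 243.7 in the brain libraries, so the lowest blood library exceeded the highest brain library 324-fold. Lck, the kinase that starts antigen receptor signalling and is also active in innate lymphocytes, ran from 18621 to 49697 (median 31502) in blood and from 24.1 to 123 (median 70.0) in brain. Il2rb, the IL-2 and IL-15 receptor chain, ran from 16663 to 31484 (median 26322) in blood and from 20.7 to 50.7 (median 28.8) in brain, a log2 difference of -9.62 ± 0.25 (SE, adjusted p = 8.91e-18). None of the 9 genes overlapped between the groups, whereas 14.3% of all genes were called lower and 35.4% did not overlap in either direction. In the cultured baseline Lck was as low as in brain, at 0 to 131 (median 42.0), so it separates brain from blood but not from the cultured cells. Il2rb was high there, at 28281 to 47508 (median 45177), and the pan-lymphocyte genes together took 0.254 to 0.317% of the baseline counts.

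The brain libraries therefore carried lymphocyte transcripts at a trace level, and the name ILC2 describes their label rather than most of their RNA. In bulk samples, fewer cells of a type and less RNA per cell cannot be told apart. Ptprc, which encodes the pan-leukocyte antigen CD45 used in the sort before transfer, ran from 22726 to 35034 (median 27264) in blood and from 700.4 to 2785 (median 1566) in brain. Its log2 difference was -4.27 ± 0.34 (SE), smaller than those of the lymphocyte genes, and microglia also carry CD45. The blood libraries held lymphocyte transcripts but were not ILC2 RNA alone either: markers of NK cells, B cells, platelets, erythroid cells and neutrophils were abundant in them. T cell markers were abundant in them too, but took a larger share still of the cultured baseline. What part other cell types had in the differences between brain and blood was not tested.

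The genes that define ILC2s mostly followed the lymphocyte genes. Of 23 tested members of the ILC2 identity list, 13 were lower in brain, 1 was higher and 9 did not pass the test, with a median log2 difference of -2.60 against 0.47 over all genes. Gata3 ran from 1269.8 to 1895 (median 1597) in blood and from 0 to 22.2 (median 13.9) in brain, a log2 difference of -7.26 ± 0.60 (SE, adjusted p = 7.3e-10). Klrg1, the inhibitory receptor of the pre-transfer sort, ran from 4367 to 22019.9 (median 7545) in blood and from 1.9 to 23.4 (median 7.3) in brain, a log2 difference of -10.03 ± 0.52 (SE, adjusted p = 2.79e-13). Every blood library lay above every brain library for both genes.

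The receptors through which ILC2s sense IL-7, IL-18 and costimulation were lower too. Il7r, which encodes CD127, ran from 1159.5 to 3131 (median 2229.7) in blood and from 35.8 to 142 (median 83.8) in brain, a log2 difference of -4.61 ± 0.71 (SE, adjusted p = 9.47e-06). Icos had a log2 difference of -5.82 ± 0.33 (SE), Il18r1 of -7.65 ± 0.81 (SE) and Il2ra, which encodes CD25, of -4.44 ± 0.64 (SE), with no overlap for any of these. Id2, a transcriptional regulator required by all innate lymphoid cells and active in many other cell types, fell less: it ran from 11518 to 21809 (median 16653) in blood and from 2969.7 to 8644 (median 4295) in brain, a log2 difference of -1.69 ± 0.26 (SE, adjusted p = 7.34e-06).

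Other ILC2 genes did not pass the test. Il1rl1, the gene of ST2, the receptor for IL-33, was low in both groups, from 47.2 to 232 (median 115) in blood and from 3.4 to 136 (median 34.3) in brain, and its adjusted p was 0.225. Rora ran from 599.6 to 1772 (median 867) in blood and from 793 to 1235 (median 1090.1) in brain, with a log2 difference of 0.14 ± 0.73 (SE) and an adjusted p of 0.904; its log2 difference was -0.27 with equal library totals and -0.26 in batch 1 alone. Thy1, a surface glycoprotein of lymphocytes and neurons, ran from 286 to 3304 (median 835) in blood and from 43.4 to 1052 (median 261) in brain. Its adjusted p was 0.0713, 0.0148 without brain replicate 1 and 0.0153 without brain replicate 3. The 1 member that was higher in brain was Hs3st1, a heparan sulfate sulfotransferase, which ran from 167 to 358 (median 259.9) in blood and from 1947 to 5314 (median 4332) in brain, a log2 difference of 3.74 ± 0.58 (SE, adjusted p = 8.84e-06).

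In the cultured cells themselves the genes of the sort markers were uneven: the median normalized count over 5 baseline libraries was 17922 for Klrg1, 13773 for Il2ra, 16.9 for Il7r and 0 for Il1rl1. The median of Gata3 there was 203, and that of Il18r1 was 7.3 (0 to 14.4), against 0 to 25.8 for Il18r1 in brain. For Il7r and Il18r1 the cultured cells were thus closer to brain than to blood. Klrg1 and Il2ra were far higher in the cultured cells than in brain.

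**Figure D2:**
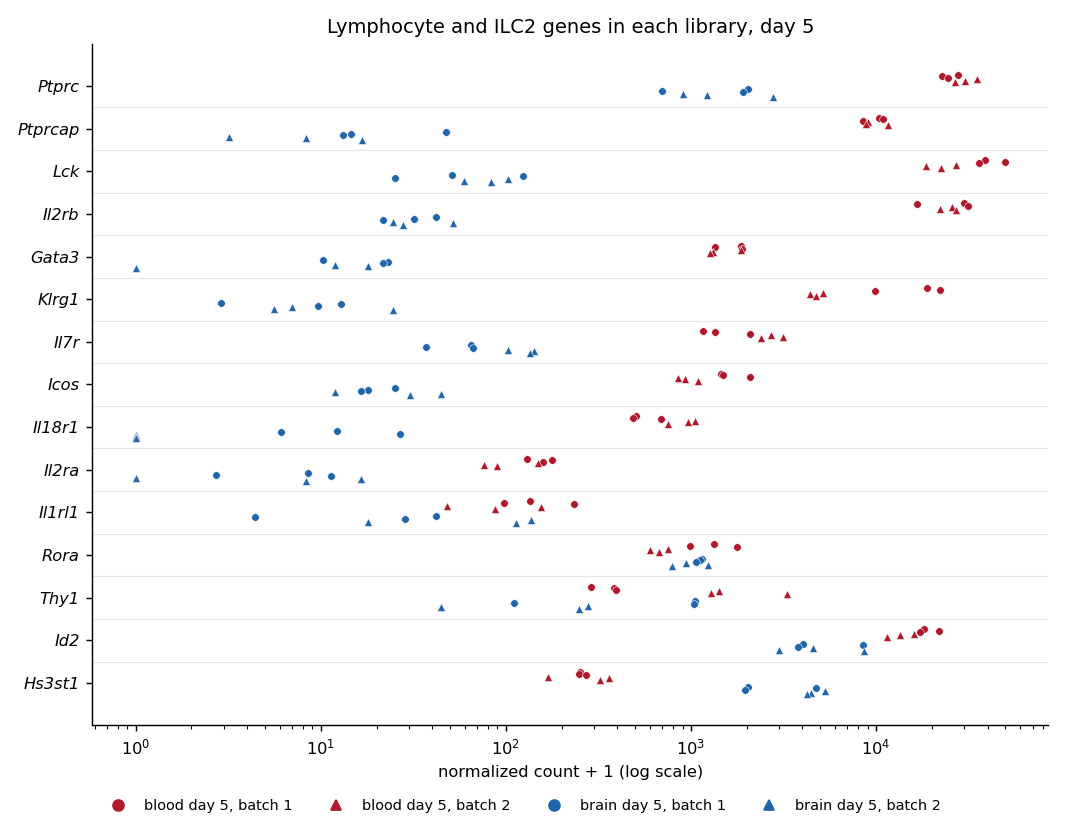
Normalized count plus 1 (log scale) of 15 genes in each library, red for blood day 5 and blue for brain day 5, with circles for batch 1 and triangles for batch 2. Ptprcap to Il2ra are separated by group in every library, Il1rl1, Rora and Thy1 overlap, and Hs3st1 is higher in every brain library.

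Few genes of ILC2 effector function could be measured. Il13 and Areg were not analysed here, and Il5 was too low to test, at 0 to 13.8 in blood and 0 to 1.9 in brain. Of 10 tested type 2 effector genes, 4 were higher in brain and none was lower, against 33.6% of all genes higher. Penk, which encodes proenkephalin, ran from 20.5 to 156 (median 52.1) in blood and from 1873 to 13465 (median 3437) in brain, a log2 difference of 6.03 ± 0.90 (SE, adjusted p = 5.7e-06). Tph1, the enzyme that starts peripheral serotonin synthesis, was at 12.1 to 22.2 in the batch 1 brain libraries and 1186 to 3999.9 in the batch 2 brain libraries, against 0 to 8.4 in blood. Il10, the anti-inflammatory cytokine gene, ran from 0 to 21.5 (median 2.1) in blood and from 0 to 65.9 (median 23.6) in brain, with an adjusted p of 0.176 that became 0.0437 without brain replicate 4.

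The alarmins that act on ILC2s were present in the brain libraries and nearly or wholly absent from blood. These 3 genes were chosen after their values were seen. Il33 (mm10 chr19:29925114-29960718) ran from 3826 to 16762 (median 5978) in brain, with brain replicate 2 the highest, and was at 0 in 5 of 6 blood libraries and at 11.9 in the sixth. Tslp ran from 13.8 to 158 (median 65.0) and Il25 from 12.1 to 181 (median 84.7) in brain, and neither had a read in any blood day 5 library. Against a floor of 3 reads per library their means were at least 22.94-fold higher for Tslp and at least 30.64-fold higher for Il25.

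Of the 10 genes with the largest falls, 9 are known from NK cells, cytotoxic cells or platelets. The other was Cym, which encodes chymosin, at 1017 to 8245 (median 3142) in blood and 0 to 20.1 (median 0) in brain. All 12 tested NK receptor genes were lower in brain, none overlapped, and their median log2 difference was -10.29. Ncr1 (mm10 chr7:4337724-4345164), which encodes NKp46, ran from 8646 to 32451 (median 14393) in blood and from 0 to 7.7 (median 5.2) in brain, a log2 difference of -12.10 ± 0.68 (SE, adjusted p = 9.26e-13). Klrb1c, which encodes NK1.1, ran from 11270.1 to 21275 (median 17403) in blood and from 0 to 22.4 (median 14.1) in brain. The Ly49 receptor genes Klra1 and Klra7 had log2 differences of -10.70 ± 0.67 (SE) and -10.69 ± 0.67 (SE); members of this family are near-identical, and how reads were divided among them is not given in the sources used here.

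Cytotoxic genes were lower in brain than in blood, as the NK receptors were. Of 20 type 1 and cytotoxic effector genes, 16 were lower and 2 were higher, with a median log2 difference of -8.61. Gzma, which encodes granzyme A, ran from 50994 to 332679 (median 70872) in blood and from 17.0 to 359 (median 51.5) in brain, a log2 difference of -10.70 ± 0.59 (SE, adjusted p = 7.36e-13). Prf1, which encodes perforin, ran from 18705 to 50142 (median 26879) in blood and from 0 to 42.5 (median 18.2) in brain, and Fasl, the ligand of the death receptor FAS, had a log2 difference of -10.86 ± 0.61 (SE). Ifng, the type 1 cytokine, ran from 326 to 772 (median 538) in blood and was at 0 in 3 brain libraries and at most 16.0 in the others. Tbx21, which encodes T-bet, Nkg7, a cytotoxic granule protein, and the chemokine gene Ccl5 had log2 differences of -10.02 ± 0.77 (SE), -9.64 ± 0.60 (SE) and -8.74 ± 0.53 (SE). The list took 4.50 to 12.3% of the counts of the cultured baseline, against 1.06 to 3.70% in blood day 5. Gzma was at 388455 to 1764935 and Prf1 at 53884 to 265886 in the cultured cells, above every blood day 5 library. Tbx21 and Ncr1 were low there, at 0 to 85.0 and 0 to 12.2.

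The 2 members of that list that were higher in brain encode cytokines that macrophages also make. Ccl3 ran from 874 to 1247 (median 947) in blood and from 2608 to 18004 (median 3429.7) in brain, a log2 difference of 2.13 ± 0.58 (SE, adjusted p = 0.00385). Tnf ran from 56.8 to 104 (median 70.3) in blood and from 20.5 to 4185 (median 2135) in brain, a log2 difference of 3.89 ± 1.33 (SE, adjusted p = 0.0192). Brain replicate 2 held the lowest Tnf of all 12 libraries, so the groups overlapped, and neither batch alone passed (adjusted p = 0.199 in batch 1 and 0.0779 in batch 2).

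Promoters of these lists were searched for the RUNX core motif TGTGGT, since Runx3, a RUNX factor of cytotoxic lymphocytes, ran from 1071 to 1967 (median 1707) in blood and from 18.7 to 112 (median 57.9) in brain. The 250 bases before the start site were read on both strands from RefSeq promoters of build GRCm38.p6, the assembly of mm10. The motif occurred in 7 of 15 NK receptor genes with a promoter in that table, in 6 of 16 type 1 and cytotoxic effector genes, and in 15.9% of all 27025 genes. The Ly49 genes share sequence, so the 15 are not independent, and the motif was chosen with the expression values known. Of the ependymal and cilia genes, 4 of 10 held the RFX half-site GTTGCC, against 11.8% of all genes. Of the choroid plexus genes, 3 of 6 held the RFX half-site. Of the microglia genes, 1 of 12 held the PU.1 motif GAGGAAGT, against 2.79% of all genes. A match is a stretch of letters and not a known binding site. The windows of Ncr1, the NK gene with the largest fall, of Klrb1c and of the cilia gene Tekt1 are shown 5′ to 3′ on the gene's strand, with motif matches in capitals. They lie at chr7:4337474-4337723 (+ strand), chr6:128788642-128788891 (- strand) and chr11:72361883-72362132 (- strand).
Ncr1: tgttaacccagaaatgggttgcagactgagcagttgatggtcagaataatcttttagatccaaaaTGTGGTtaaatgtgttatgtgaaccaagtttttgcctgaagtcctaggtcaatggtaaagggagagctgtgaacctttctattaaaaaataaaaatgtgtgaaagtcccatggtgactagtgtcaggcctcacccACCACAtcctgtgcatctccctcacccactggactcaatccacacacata
Klrb1c: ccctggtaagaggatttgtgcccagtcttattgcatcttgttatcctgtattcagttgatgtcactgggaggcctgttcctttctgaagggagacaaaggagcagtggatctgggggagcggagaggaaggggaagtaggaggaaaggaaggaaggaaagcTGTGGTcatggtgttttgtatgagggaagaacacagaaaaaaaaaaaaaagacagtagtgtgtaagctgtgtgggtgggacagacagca
Tekt1: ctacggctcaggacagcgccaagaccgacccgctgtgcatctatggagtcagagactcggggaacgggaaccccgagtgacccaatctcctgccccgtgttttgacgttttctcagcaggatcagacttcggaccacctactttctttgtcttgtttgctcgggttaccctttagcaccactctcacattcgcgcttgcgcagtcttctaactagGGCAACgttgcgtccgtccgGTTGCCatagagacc
The Ncr1 window holds 2 matches to TGTGGT or its reverse complement, the Klrb1c window 1, and the Tekt1 window 2 matches to GTTGCC or its reverse complement. Windows with a match were chosen for display: both windows of Klra7 and the window of Fasl held no TGTGGT, and the second window of Tekt1 held no GTTGCC.

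T cell genes were lower throughout: all 16 fell, none overlapped, and the median log2 difference was -8.29. Cd3e, a chain of the T cell receptor complex and part of the lineage gate applied to the donor cells, ran from 1594 to 4249 (median 2655) in blood and from 0 to 16.4 (median 10.8) in brain. The cultured baseline libraries all held more Cd3e than any blood day 5 library, at 4847 to 19428.5 (median 5431). T cell markers took 0.528 to 1.31% of the baseline counts and 0.292 to 0.475% of those of blood day 5. The 8 GIMAP GTPase genes, which support lymphocyte survival, all fell, with Gimap3 at -9.06 ± 0.24 (SE). Of 8 tested type 3 ILC genes, 5 fell and 1 rose. Ltb, which encodes lymphotoxin β, had a log2 difference of -8.09 ± 0.78 (SE), and the IL-1 receptor gene Il1r1 was the member that rose; it ran from 0 to 118 (median 40.8) in blood and from 327 to 4805 (median 2982) in brain.

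Genes of lymphocyte traffic fell in brain by unequal amounts. Of 14 recirculation genes, 12 were lower and 2 did not pass. Ccr7, the chemokine receptor of lymph node entry, had a log2 difference of -8.48 ± 0.97 (SE) and S1pr4 of -6.14 ± 0.34 (SE). Klf2, a transcription factor of circulating lymphocytes that is also high in endothelium, fell by less: it ran from 12091 to 14051 (median 13325) in blood and from 1518 to 3303 (median 2082) in brain, a log2 difference of -2.59 ± 0.30 (SE, adjusted p = 1.72e-07). S1pr1, the sphingosine phosphate receptor that lymphocytes use to leave tissues and that endothelium and astrocytes also carry, ran from 6029 to 9043 (median 7461) in blood and from 2837 to 7298 (median 3565) in brain. Its adjusted p was 0.353, and 0.00383 with the 12 libraries compared fitted alone. S1pr5 ran from 4192 to 6536 (median 5348) in blood and from 787 to 1687 (median 1489) in brain, a log2 difference of -2.02 ± 0.60 (SE, adjusted p = 0.00714).

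Genes linked to tissue residency did not rise in level as a group. Of 16 tested, 8 fell, 1 rose and 7 did not pass. Cd69, the early activation antigen that retains lymphocytes in tissue, ran from 1786 to 4613 (median 3184) in blood and from 82.3 to 189 (median 121) in brain, a log2 difference of -4.62 ± 0.47 (SE, adjusted p = 2.38e-08). Divided by the summed pan-lymphocyte genes of its library, Cd69 went the other way, with a log2 difference of 4.54. The limits of that ratio are given with the ratios of the other genes. Itgae, which encodes the integrin CD103, ran from 211 to 719.8 (median 557) in blood and from 5.1 to 136 (median 59.2) in brain, a log2 difference of -3.17 ± 0.92 (SE, adjusted p = 0.00606). Cxcr6 had a log2 difference of -7.45 ± 0.93 (SE), and Zfp683, which encodes the residency factor HOBIT, of -6.11 ± 1.08 (SE). The member that rose was P2rx7, an ATP-gated channel also carried by microglia, a log2 difference of 2.13 ± 0.68 (SE, adjusted p = 0.0117); with equal library totals its adjusted p was 0.0524.

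Chemokine receptors and integrins followed the same pattern. Of 17 chemokine receptor genes, 13 fell and 1 rose, the riser being Cx3cr1, the fractalkine receptor of microglia, monocytes and NK cells, which ran from 2309.9 to 4656 (median 3007) in blood and from 9058 to 27807 (median 16838) in brain. Of 14 integrin genes, 8 fell and 1 rose. Itgb7 had a log2 difference of -7.06 ± 0.35 (SE) and Itgal, which encodes the α chain of LFA-1, of -6.90 ± 0.41 (SE), while Itgb5, an integrin chain of phagocytes and stromal cells, rose by 2.87 ± 0.72 (SE). Itgam, which encodes CD11b, divided the brain libraries by batch: it was at 0 to 1.9 in brain replicates 1 to 3 and at 821.9 to 4501 in replicates 4 to 6, against 3575 to 9063 (median 4725) in blood. Its log2 difference was -12.21 in batch 1 and -0.82 in batch 2, so the call rested on batch 1. Over both batches it was -6.52 ± 1.51 (SE, adjusted p = 0.000931), against -2.92 with edgeR (adjusted p = 0.122) and -2.53 with DESeq2 (adjusted p = 0.0887).

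Receptors that tune lymphocyte responses fell in 10 of 14 cases, among them Ctla4 (-7.79 ± 1.22 (SE)), Tigit (-8.19 ± 0.54 (SE)) and Cd160 (-8.33 ± 0.65 (SE)) on the log2 scale. The 2 that rose were Lag3, which ran from 0 to 249.5 (median 53.6) in blood and from 390.3 to 6141 (median 2695) in brain, and Havcr2, which encodes TIM-3 and ran from 86.7 to 407 (median 136) in blood and from 839 to 2394 (median 1133) in brain. The adjusted p of Havcr2 was 0.0216, 0.0572 with equal library totals, 0.0636 in batch 1 alone and 0.157 in batch 2 alone. In the cultured baseline Havcr2 was at 14195 to 45247, above every brain library, so a high level did not mark brain alone. Ctla4 was at 3159 to 50579 there, above every blood day 5 library, and Lag3 at 0 to 12.6. Of 12 genes of IL-2 and STAT5 signalling, 9 fell, among them Il2rg, the shared cytokine receptor chain (a log2 difference of -4.78 ± 0.41 (SE, adjusted p = 1.43e-09)), and 1 rose. The riser was Socs3, a STAT3-induced inhibitor, whose adjusted p of 0.0182 became 0.0546 without blood replicate 2, 0.214 with equal library totals, 0.0864 with TMM scaling, 0.619 in batch 2 alone and 0.223 with edgeR.

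**Figure D3:**
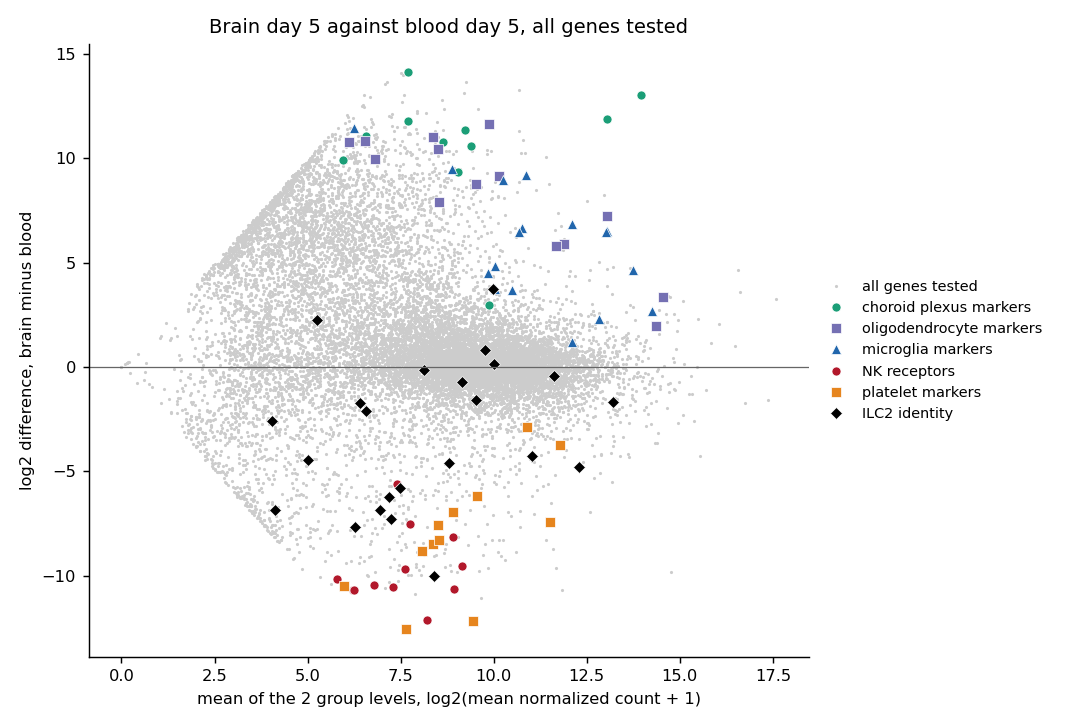
Log2 difference between brain and blood day 5 for all 15268 genes tested against the mean of the 2 group levels (log2 of the mean normalized count plus 1). Choroid plexus, oligodendrocyte and microglia markers lie above 0, NK receptors and platelet markers lie below it, and the ILC2 identity genes run from -10.03 (Klrg1) to 3.74 (Hs3st1).

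Genes of the choroid plexus, the ventricle lining and the meninges were among those with large rises. All 11 choroid plexus markers were higher in brain, with a median log2 difference of 11.08 and no overlap. Ttr, which encodes transthyretin, the main secreted protein of the choroid plexus, ran from 207774 to 1000727 (median 593328) in brain and from 0 to 2568 (median 50.3) in blood, a log2 difference of 13.05 ± 2.15 (SE, adjusted p = 2.09e-05). Enpp2, which encodes autotaxin, ran from 136805 to 1200309.9 (median 291432) in brain and from 8.3 to 578 (median 102) in blood. Otx2 (mm10 chr14:48657677-48673819), a homeobox factor of the choroid plexus, had no read in any blood library and was 4649 to 4880 in the batch 1 brain libraries and 33154 to 137158 in batch 2. Its brain mean was at least 14160-fold above a floor of 3 reads per blood library.

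The other genes of largest rise were also at or near 0 in blood. Kcne4 and Pex5l, 2 channel-associated proteins, Fbln2, an extracellular matrix fibulin, and Slco1a4, a transporter of the blood-brain barrier, had no read in any blood library. Their brain means were at least 10930-fold, 11950-fold, 6614-fold and 5953-fold above the same floor. Igfbp5, which encodes an IGF-binding protein, ran from 5009 to 83076 (median 44833) in brain and from 0 to 30.7 (median 0) in blood. Slc47a1, a cation extruder of meningeal fibroblasts, ran from 9674 to 91829 (median 21138) in brain and at most 53.9 in blood, and Cyp1b1, a cytochrome P450 of vessel and stromal cells, ran from 3335 to 37757 (median 12642) in brain and was at 0 in 5 blood libraries.

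Among genes with a mean of at least 100 in both groups, the largest rises besides Ttr, Enpp2 and Olig1 were Lama1, Slc38a3, Hepacam, Tubb4a and Igfbp3, and the largest falls included Itga2b and Alox12, both of platelets. Tubb4a, a tubulin of oligodendrocytes and neurons, ran from 21002 to 98071 (median 51743) in brain and from 38.0 to 362 (median 91.7) in blood, a log2 difference of 8.78 ± 0.93 (SE, adjusted p = 3.82e-08). Hepacam, an adhesion protein of glia, and Slc38a3, a glutamine transporter, had log2 differences of 8.85 ± 1.42 (SE) and 10.06 ± 1.58 (SE). Lama1, a laminin chain, owed its blood mean to 1 library, with 912.4 in replicate 4 and 0 in the others, and its adjusted p was 0.0917 with edgeR and 0.251 with DESeq2. Igfbp3, an IGF-binding protein, had a log2 difference of 8.64 ± 1.45 (SE) and an adjusted p of 0.082 with DESeq2. Itga2b, which encodes the platelet integrin αIIb, ran from 13455 to 90684 (median 37265) in blood and from 103 to 476 (median 165) in brain.

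Cilia genes of the ependyma rose in 11 of 11 cases with a median log2 difference of 10.56. Tekt1, which encodes a protein of ciliary microtubules, ran from 3375 to 41860.0 (median 6919) in brain and was seen in 1 blood library, at 22.6. Foxj1, the transcription factor of motile cilia, ran from 361 to 5343 (median 4139) in brain and had 1.6 in a single blood library. The ratio of its read rates, brain to blood, was 31640, with a 95% counting interval of 5678 to 1.25e+06.

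Fibroblast and collagen genes rose in 10 of 11 cases. Col3a1, which encodes a collagen α chain, ran from 5181 to 172160.2 (median 88782) in brain and from 0 to 115 (median 10.8) in blood, a log2 difference of 13.29 ± 1.53 (SE, adjusted p = 1.38e-07). Igf2, which choroid plexus and meningeal cells also make, ran from 1345 to 32303 (median 10604) in brain and was at 0 in 5 blood libraries and 7.5 in the other. Pdgfra had no read in blood and a brain mean at least 2641-fold above the floor.

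Glial genes were higher without exception in 2 lists. All 14 oligodendrocyte genes rose, with a median of 8.97. Mbp, which encodes myelin basic protein, ran from 39368 to 128353 (median 61539) in brain and from 2310.2 to 21789.5 (median 5795) in blood, a log2 difference of 3.34 ± 0.56 (SE, adjusted p = 2.41e-05). Opalin, a marker of myelinating oligodendrocytes, ran from 8467 to 159032 (median 28692) in brain and from 0 to 40.1 (median 16.2) in blood, Cldn11 had a log2 difference of 11.04 ± 1.06 (SE), and Olig1, the lineage factor, of 9.15 ± 1.65 (SE). Mbp was thus not at 0 in blood, where the batch 2 libraries held 7224 to 21789.5, above the 2310 to 4367 of batch 1.

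All 13 astrocyte genes rose as well, with a median of 7.31. Gfap, the intermediate filament of reactive astrocytes, ran from 5150.0 to 16935 (median 10028) in brain and from 0 to 172 (median 109.6) in blood, a log2 difference of 8.09 ± 1.20 (SE, adjusted p = 5.04e-06). Aqp4, the water channel of astrocyte endfeet, ran from 1315 to 3994 (median 2752) in brain, and Sox9 had a log2 difference of 10.42 ± 1.22 (SE). Neuron genes took the smallest share among the lists of brain cell types, 0.0034 to 0.0218% of the brain libraries, against 0.142 to 0.391% for astrocyte genes. Of 12 tested, 7 rose and none fell. Tubb3, a neuronal tubulin, ran from 295 to 1951 (median 1173) in brain and from 18.2 to 63.8 (median 33.6) in blood, while Snap25, a synaptic vesicle fusion protein, ran from 1.9 to 676 (median 166) in brain and from 0 to 96.3 (median 13.4) in blood. The adjusted p of Snap25 was 0.0939, and 0.0197 and 0.0464 without brain replicates 1 and 3.

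Vessel genes were mixed in 1 respect. Of 12 endothelial genes, 10 rose and 1 fell, and of 10 mural cell genes, 9 rose and 1 fell. Cldn5, the tight junction protein of brain endothelium, ran from 2449.7 to 12537 (median 5182) in brain and from 0 to 95.8 (median 13.6) in blood, a log2 difference of 8.95 ± 1.30 (SE, adjusted p = 3.89e-06), and Cspg4, which encodes NG2 of pericytes and oligodendrocyte precursors, had a log2 difference of 11.29 ± 0.74 (SE). Pecam1, which platelets and leukocytes also carry, was the endothelial gene that fell; it ran from 2019.8 to 4094 (median 3229) in blood and from 201 to 2698 (median 1032) in brain, and Kcnj8, a potassium channel subunit of pericytes, was the mural gene that fell, a log2 difference of -2.04 ± 0.44 (SE, adjusted p = 0.000462).

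Microglial genes were higher in brain in 16 of 17 cases, with a median log2 difference of 6.46 against 0.47 over all genes. Tmem119, a microglial surface protein, ran from 7176 to 31178 (median 16383) in brain and from 71.1 to 265 (median 157) in blood, a log2 difference of 6.68 ± 0.78 (SE, adjusted p = 1.71e-07). Fcrls ran from 24893 to 106659.9 (median 34827) in brain and from 18.1 to 133 (median 76.9) in blood, and Slc2a5, the fructose transporter, had no read in blood and a mean at least 1885-fold above the floor in brain. Sall1, a transcription factor of microglia, was 15483 and 16567 in brain replicates 1 and 3 and 908.3 to 3054 in the other 4. The exception was P2ry12, an ADP receptor of microglia and platelets, which ran from 1599 to 19355 (median 5127) in brain and from 790.3 to 5018 (median 2462) in blood, with an adjusted p of 0.214 and log2 differences of -0.64 in batch 1 and 3.03 in batch 2.

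Genes that microglia raise in disease were among the most abundant of the brain libraries, together taking 4.41 to 12.2% of their counts against 0.727 to 1.02% in blood. Of 17 tested, 13 rose and none fell. Spp1, which encodes osteopontin, ran from 22426 to 492281 (median 105276) in brain and from 257 to 482 (median 367) in blood, a log2 difference of 8.26 ± 0.65 (SE, adjusted p = 3.29e-10). It was also high in the cultured baseline, with a median of 137829, so a high level did not mark brain cells alone. Apoe, the main lipid carrier of brain, ran from 266811 to 980483 (median 406916) in brain and from 15967 to 28188 (median 16655) in blood, a log2 difference of 4.64 ± 0.38 (SE, adjusted p = 5.91e-10). Gpnmb, a lysosomal glycoprotein of phagocytes, had a log2 difference of 7.36 ± 0.73 (SE), and Ctsd, which encodes cathepsin D, ran from 386385 to 1149455 (median 516121) in brain and from 47813 to 79099 (median 59096) in blood.

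Lysosomal and lipid-handling genes rose with them. Of 20 lysosome and cathepsin genes, 18 rose, among them Ctsl (a log2 difference of 6.13 ± 0.44 (SE, adjusted p = 7.02e-11)) and Lgmn, which encodes legumain (a log2 difference of 4.74 ± 0.38 (SE, adjusted p = 3.5e-10)). The 1 that fell was Laptm5, a lysosomal protein of leukocytes, which no longer passed without any single one of blood replicates 1 and 3 or brain replicates 1, 3 and 5. Of 13 genes of cholesterol efflux and lipid transport, 11 rose and none fell, including the lipoprotein lipase gene Lpl at 6.18 ± 1.13 (SE). Of 10 complement genes, 6 rose: C1qa, which opens the classical pathway, ran from 25101 to 100976 (median 41515) in brain and from 195 to 665 (median 396) in blood. The complement gene that fell, Cfp, which encodes properdin, lost its call without any one of blood replicates 4 and 6 and brain replicates 1 and 3.

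Macrophages at the brain borders were represented less evenly. Of 8 border macrophage genes, 6 rose and 1 fell. Stab1, a scavenger receptor, ran from 339 to 15962 (median 8837) in brain and from 4.7 to 75.7 (median 11.2) in blood, and the folate receptor gene Folr2 ran from 63.7 to 2047 (median 855) in brain and at most 22.1 in blood. The gene that fell, F13a1, a coagulation factor chain that platelets carry as well, lost its call without any one of blood replicates 1, 3, 4, 5 and 6 and brain replicates 1, 2 and 3. Of 9 monocyte genes, 5 fell and 2 rose. Ccr2, the receptor of inflammatory monocytes and of some NK cells, ran from 3792 to 8888 (median 6521) in blood and from 127 to 271 (median 162) in brain, and the risers were Csf1r (a log2 difference of 2.69 ± 0.39 (SE, adjusted p = 3.56e-06)), which microglia carry, and Ace (a log2 difference of 3.19 ± 0.90 (SE, adjusted p = 0.00533)).

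Transcripts of blood cells were the counterpart in the blood libraries. All 12 platelet genes and all 7 erythroid genes tested were lower in brain. Ppbp, a platelet chemokine, ran from 5484 to 123284 (median 32363) in blood and from 0 to 35.0 (median 6) in brain, a log2 difference of -12.15 ± 1.55 (SE, adjusted p = 6.33e-07), and Tubb1, the platelet tubulin, had a log2 difference of -12.55 ± 1.24 (SE). Hba-a1, an α-globin whose near-identical copy was not analysed here, ran from 41015 to 628196 (median 147998) in blood and from 0 to 13844 (median 399.5) in brain, a log2 difference of -9.83 ± 2.02 (SE, adjusted p = 0.000284). Alas2, the heme synthesis enzyme of red cells, ran from 4668 to 110800.1 (median 42162) in blood, higher in each batch 1 library than in any of batch 2. Pf4, which encodes platelet factor 4 and is also made by some macrophages, ran from 2692 to 18536 (median 13033) in blood and from 155 to 3371 (median 730.4) in brain; its adjusted p of 0.0222 became 0.0546 without blood replicate 3.

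B cell and neutrophil genes fell too. Of 13 B cell genes, 12 fell and none overlapped. Cd79a, part of the B cell receptor complex, ran from 9888 to 43609 (median 31664) in blood and from 27.5 to 131 (median 39.5) in brain, a log2 difference of -9.22 ± 0.59 (SE, adjusted p = 8.59e-12). B220, a B cell form of CD45, was part of the lineage gate applied to the donor cells. Of 14 neutrophil genes, 12 fell. S100a8, which encodes a calprotectin subunit, was 15125 to 16844 in the batch 1 blood libraries and 55955 to 214549 in batch 2, against 339 to 4949.5 (median 787) in brain. Of 8 MHC class II genes, which B cells, dendritic cells and macrophages carry, 7 fell, and Cd74, the invariant chain, ran from 88975 to 304735 (median 205545) in blood and from 5614 to 22746 (median 9234) in brain.

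Genes of mast cells moved in both directions. Of 13 genes of mast cells, basophils and eosinophils, 5 fell and 2 rose, and 3 fell without either of brain replicates 1 and 2. The tryptase genes rose: Tpsb2 ran from 188 to 4797 (median 1413) in brain and at most 2.8 in blood, and Tpsab1 had no read in blood, nor in brain replicate 1, and 294.4 to 2012 in the other brain libraries. The mast cell chymase gene Cma1 fell, from 1294 to 13856 (median 2902) in blood and 14.9 to 770 (median 296) in brain, a log2 difference of -4.28 ± 0.85 (SE, adjusted p = 0.000206); in batch 2 alone it was -1.22 (adjusted p = 0.168). The basophil proteases Mcpt8 and Prss34 fell, with Mcpt8 running from 725 to 2267 (median 1396) in blood and from 0 to 688 (median 81.2) in brain. Of 11 dendritic cell genes, 4 fell and 1 rose, and 2 fell without brain replicate 5.

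**Figure D4:**
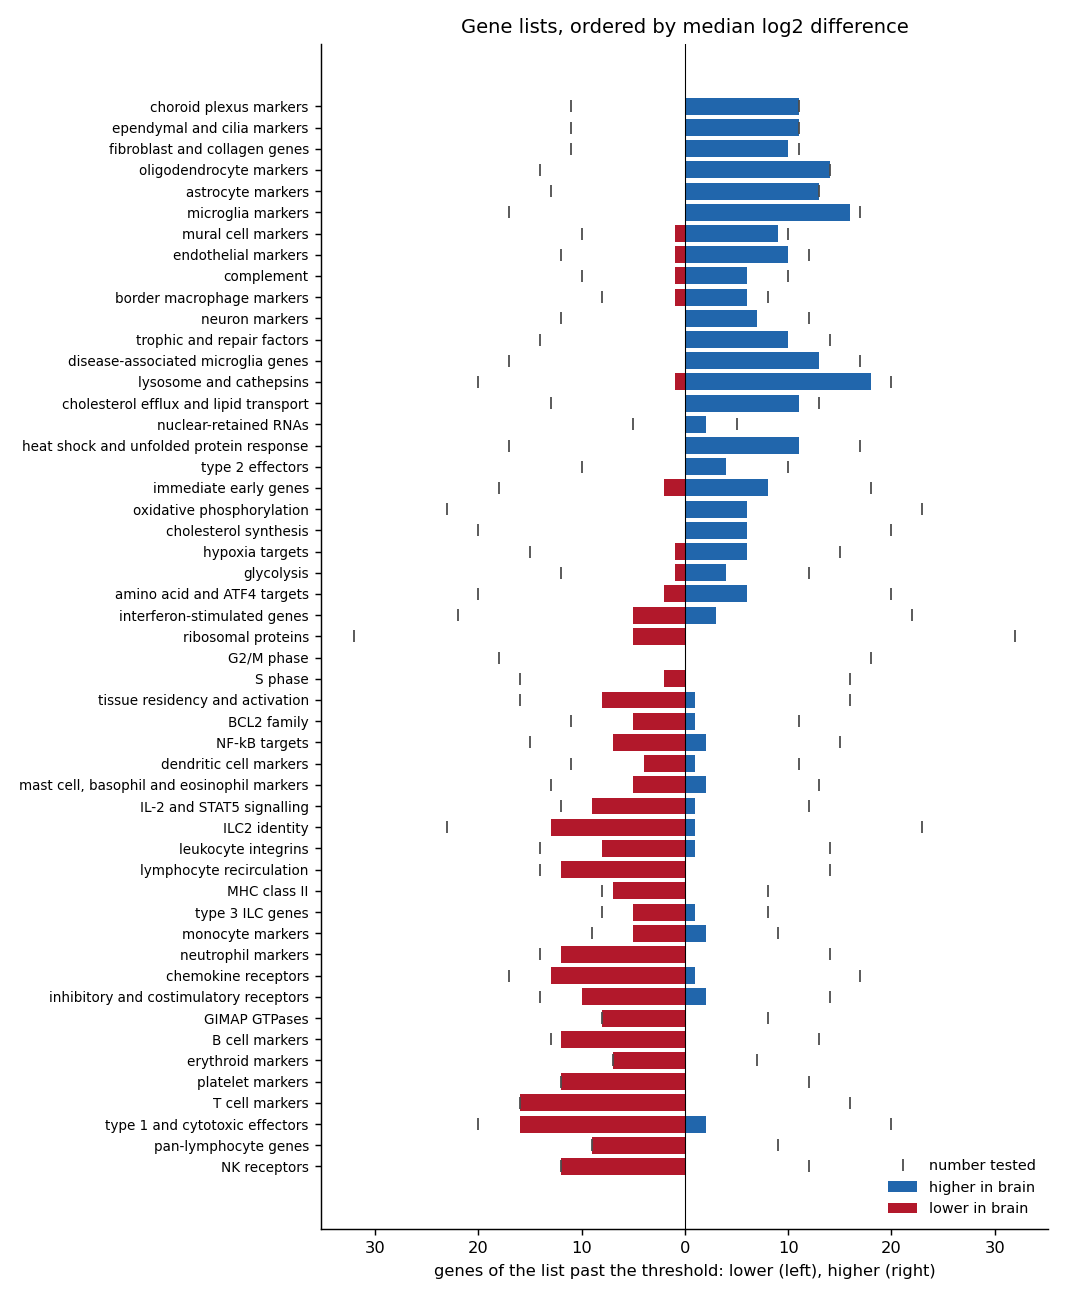
Number of genes past the threshold in each of 51 gene lists, higher in brain to the right and lower in brain to the left, with ticks at the number tested, ordered by the median log2 difference of the list. Brain cell lists stand toward the top with most or all genes higher, the neuron list with 7 of 12. Lymphocyte and platelet lists stand at the bottom with nearly every gene lower, and G2/M phase, with none of 18 called, lies between.

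Signalling genes moved in both directions. Of 18 immediate early genes, 8 rose and 2 fell, or 7 and 2 with equal library totals. Of all genes tested, 33.6% were higher and 14.3% lower, so this list moved little more often than genes in general. Its median log2 difference was 0.67, against 0.47 over all genes. Jun ran from 664 to 1466 (median 994) in blood and from 15118 to 27469.5 (median 21113) in brain, a log2 difference of 4.38 ± 0.27 (SE, adjusted p = 6.04e-12), and Egr1 rose by 3.87 ± 0.52 (SE), while Dusp2, a phosphatase of lymphocytes and myeloid cells, ran from 6524 to 11830.3 (median 8152) in blood and from 64.9 to 362 (median 222) in brain. Of 15 NF-κB targets, 7 fell and 2 rose, the risers being Tnf and Ccl3, and 9 fell with equal library totals. Il1b, the inflammasome cytokine, ran from 3063 to 8606 (median 4602) in blood and from 603 to 1590.1 (median 1121) in brain, a log2 difference of -2.22 ± 0.75 (SE, adjusted p = 0.0179).

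Interferon-stimulated genes showed no common direction: of 22, 3 rose, 5 fell and 14 did not pass, with a median log2 difference of 0.10 that became -0.30 with equal library totals. Bst2, which encodes tetherin, ran from 770.5 to 1125 (median 979.5) in blood and from 1988 to 4587 (median 3104) in brain, a log2 difference of 1.62 ± 0.24 (SE, adjusted p = 3.89e-06). Zbp1, a nucleic acid sensor, ran from 1197 to 1946 (median 1426) in blood and from 80.0 to 624 (median 473) in brain, a log2 difference of -2.08 ± 0.41 (SE, adjusted p = 0.000194). Trophic and repair factors rose in 10 of 14 cases and fell in none. Igf1 ran from 1182 to 4089 (median 2632) in brain and from 11.6 to 54.6 (median 29.7) in blood, a log2 difference of 6.29 ± 0.89 (SE, adjusted p = 2.95e-06). Tgfb2 had a log2 difference of 7.78 ± 0.92 (SE).

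The metabolic lists that follow moved no more often than genes in general, and some changed with the scaling. Of all genes tested, 47.9% were called, 33.6% higher and 14.3% lower. Of 12 glycolysis genes, 4 rose and 1 fell, and with equal library totals 1 rose and 4 fell. Without any one of blood replicates 2 and 5 or brain replicates 2, 4, 5 and 6, 2 of them rose. The glucose transporters went opposite ways: Slc2a1, of brain endothelium and astrocytes, ran from 1611 to 2444 (median 2142) in blood and from 9522 to 21724 (median 10609.6) in brain, a log2 difference of 2.54 ± 0.24 (SE, adjusted p = 7.98e-09), and Slc2a3, of leukocytes, platelets and neurons, ran from 4895 to 12551 (median 9078) in blood and from 86.9 to 249 (median 190.2) in brain, a log2 difference of -5.72 ± 0.48 (SE, adjusted p = 8.32e-10).

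Among 23 oxidative phosphorylation genes 6 rose and none fell, and 1 rose with equal library totals. Hypoxia targets rose in 6 of 15 cases and fell in 1, or 5 and 3 with equal library totals, and the 1 fall was lost without any one of blood replicates 1 and 3 and brain replicates 1, 3 and 6. Car9, the carbonic anhydrase induced by hypoxia, ran from 10.4 to 89.3 (median 31.4) in blood and from 381 to 672 (median 484) in brain, a log2 difference of 3.87 ± 1.02 (SE, adjusted p = 0.00303). Cholesterol synthesis genes rose in 6 of 20 cases and fell in none, or 5 and 2 with equal library totals, and Sqle, which encodes squalene epoxidase, rose by 2.20 ± 0.35 (SE). Amino acid and ATF4 targets rose in 6 of 20 cases and fell in 2, or 5 and 5 with equal library totals, with Psat1 of serine synthesis at 2.84 ± 0.36 (SE).

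Protein synthesis and folding genes differed from each other. None of 32 ribosomal protein genes rose, against 33.6% of all genes, and 5 fell, near the 14.3% of all genes that were lower. With equal library totals 13 fell, so the number of falls depends on the scaling. Rps19 had a log2 difference of -1.20 ± 0.23 (SE). Of 17 heat shock and unfolded protein response genes, 11 rose and none fell, or 7 and 1 with equal library totals. Hspa1b, a stress-induced HSP70 gene with a near-identical copy, ran from 35.3 to 91.2 (median 46.2) in blood and from 731 to 1966 (median 1280.3) in brain, a log2 difference of 4.54 ± 0.56 (SE, adjusted p = 4.14e-07). Of 16 S phase genes 2 fell and none rose; 4 fell with equal library totals and 5 with TMM scaling. No gene of the G2/M phase list passed, of 18 tested, and 1 fell with either scaling, 1 without brain replicate 2 and 2 without brain replicate 6. Mki67, the proliferation marker, ran from 228 to 1418 (median 346) in blood and from 79.8 to 842 (median 433) in brain, with an adjusted p of 0.749. Of 11 BCL2 family genes 5 fell and 1 rose, as with equal library totals, and Bcl2, the survival factor of lymphocytes, ran from 1831 to 4333 (median 2256) in blood and from 165 to 742 (median 493) in brain, a log2 difference of -2.50 ± 0.36 (SE, adjusted p = 3.96e-06).

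The brain libraries differed among themselves more than the blood libraries did. The median correlation across genes of log2 values was 0.845 between brain libraries, 0.907 between blood day 5 libraries and 0.458 between brain and blood. Brain replicate 2 had the highest choroid plexus and ependymal shares, 7.89% and 0.422%, and the lowest fibroblast, mural and monocyte shares, 0.502%, 0.0375% and 0.0869%. Brain replicate 6 had the highest microglial share, 3.95% against 1.37 to 1.81% in the others, and the lowest choroid plexus share, 1.52%. Endothelial markers took 0.204 and 0.354% of replicates 4 and 5 and 0.0439 to 0.104% of the others.

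The lymphocyte share varied less than these: it lay between 0.00056 and 0.00084% in all 6 brain libraries. The ratio of its highest to its lowest value was smaller than for the choroid plexus, ependymal, fibroblast, mural, monocyte, microglial and endothelial shares. Brain replicate 2 had the highest lymphocyte share as well as the highest choroid plexus share. Whether the lymphocyte share followed any of the others was not tested. Leaving out any 1 of the 12 libraries gave 4835 to 5248 higher and 1993 to 2215 lower genes.

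**Figure D5:**
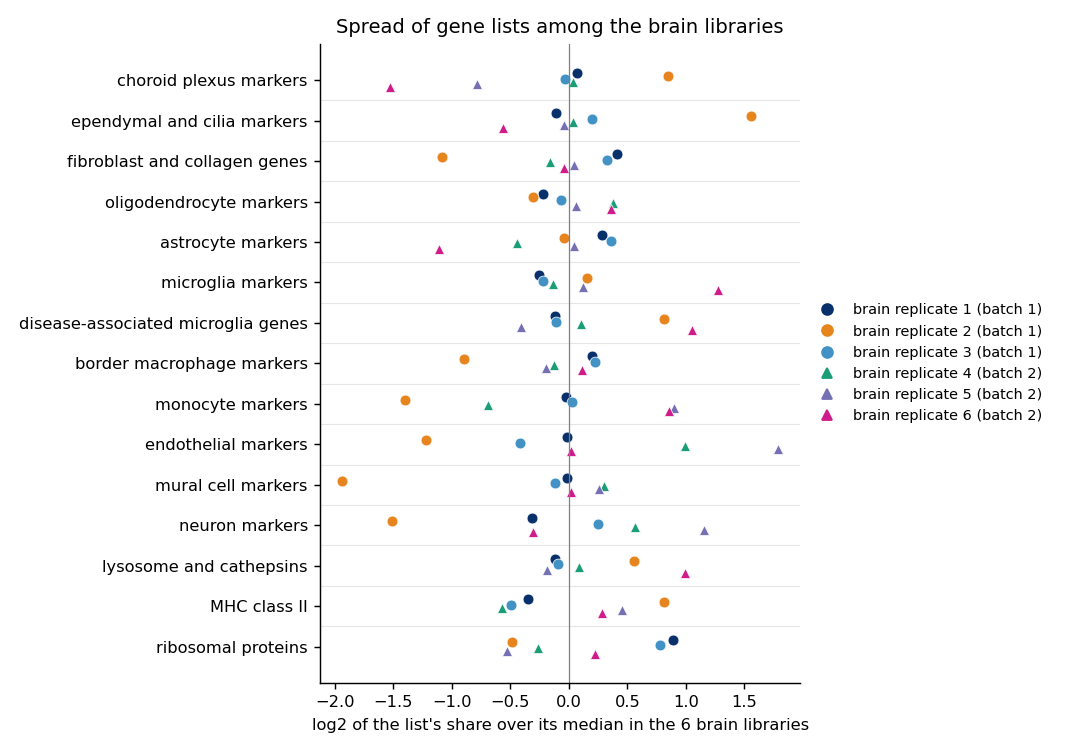
Share of 15 gene lists in each brain day 5 library as the log2 of its ratio to the median of the 6 brain libraries, circles for batch 1 and triangles for batch 2. Brain replicates 1 and 3 lie close together, replicate 2 is high for choroid plexus and ependymal lists and low for mural, monocyte and neuron lists, and replicate 6 is high for microglia and low for choroid plexus.

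To see ILC2 genes apart from the amount of lymphocyte RNA, each was divided by the summed pan-lymphocyte genes of its library. Of 22 genes listed for this, 20 were in the table, and an exact permutation test over the 12 libraries, two-sided, has a smallest possible p of 0.00216. The divisor was only 122.2 to 243.7 in the brain libraries, so any transcript that other brain cells contribute raises the ratio. By this measure 14 genes were higher in brain, 1 was lower and 5 did not pass. With a pseudocount of 0.5 in place of 1, 12 were higher, and Gata3 and Ifng no longer passed (exact permutation, adjusted p = 0.122 and 0.448). The pseudocount also bounds the ratio in brain: Il5, with 1 read in all brain libraries together, had a mean log2 ratio of -7.21 there. The blood means of Il17rb (-14.52), Il1rl1 (-9.82), Il2ra (-9.67) and Ifng (-7.65) lay below that. These genes would thus stand higher in brain even with no brain read. Ncr1 was the one lower, with a mean log2 ratio of -5.61 (SD 1.25, n = 6) in brain and -2.68 (SD 0.60, n = 6) in blood, a difference of -2.93 (exact permutation, adjusted p = 0.00333). Gata3 had -4.11 (SD 1.74, n = 6) in brain and -6.02 (SD 0.29, n = 6) in blood, a difference of 1.90 (exact permutation, adjusted p = 0.0216), though the libraries overlapped. That call was lost without any single library other than blood replicate 4 or brain replicate 6, at adjusted p-values of 0.0519 to 0.0635 by the same exact permutation test. Klrg1 did not pass, with a difference of -0.86 (exact permutation, adjusted p = 0.155). Nor did Gzma, at -1.53 (exact permutation, adjusted p = 0.0917), which passed without brain replicate 6 at -2.05 (exact permutation, adjusted p = 0.00289).

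The largest difference was that of Il17rb, at 11.44; it ran from 0 to 178 (median 24.9) in brain and was at 0 in 3 of 6 blood libraries. Rora had a difference of 9.30, Il5 of 8.31, S1pr1 of 8.29, Thy1 of 7.59, Id2 of 7.48, Il1rl1 of 7.43 and Klf2 of 6.58, with no overlap for any of them. Il5 was at 0 in 5 of 6 brain libraries, where the pseudocount of 1 over a smaller divisor gave its ratio. How much of these transcripts came from lymphocytes was not tested. Icos, a gene of lymphocytes, had a difference of 3.35, Il2ra of 4.73 and Il7r of 4.56, again with no overlap (exact permutation, adjusted p = 0.00333 for each). In the brain libraries these 3 genes stood at 10.9 to 43.4 (median 20.7), 0 to 15.5 (median 7.4) and 35.8 to 142 (median 83.8) normalized counts. Over the 6 brain libraries these rest on 207, 60 and 866 reads. Cd69 had a difference of 4.54, also with no overlap (exact permutation, adjusted p = 0.00333), on 1020 brain reads. Cxcr6, also linked to residency, did not pass, at 1.72 (exact permutation, adjusted p = 0.123).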

How the data were processed

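RNA was poly-A selected, primed with random hexamers and sequenced from both ends (150 bp), per the labels' protocols. The submitters' processing notes name fastp, HISAT2 2.0.5 and mm10. How reads were counted (tool, gene models, strand, filters) is not given in the sources used here, so overlapping and antisense genes cannot be told apart. The authors deposited 1 table of 19945 genes whose signal values, called normalized counts, are read counts divided by 1 factor per library. Whole reads were recovered from the deposited signal: in every library 100% of values were whole multiples of 1 read within 0.1 read, with a largest deviation of 0.001 read. Depth was 11.6 to 58.1 M reads per library in the 12 libraries compared, 11.6 to 16.9 M in batch 1 and 32.3 to 58.1 M in batch 2. Symbols were matched to GENCODE M21 (19931 of 19945 found).

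Genes that reached 10 or more in 5 or more of the 23 libraries (15268) entered the test on log2(value + 1) by linear models in limma (version 3.58.1, R 4.3.3), moderated with a trend and robustly. All 23 libraries entered 1 model with 4 group means and the labelled batch. The two-sided p-values of all tested genes were adjusted together (Benjamini-Hochberg), and 0.05 was the threshold. Fold changes are on the log2(value + 1) scale and understate the change of low genes. A gene is said to rise or fall only where it passed. A gene with no read in a group is set against 3 reads in each library as the floor, and a group with 1 to 3 reads is given as a ratio of read rates with its exact 95% interval; both cover counting error only. Ratios to the summed pan-lymphocyte genes were compared by an exact permutation test. edgeR 4.0.16 (quasi-likelihood) and DESeq2 1.42.0 on the recovered reads were alternatives. The fit was tested on simulated data. Genes are named by size of change among all tested genes, among genes with a mean of at least 100 in both groups, and within each list, plus a fixed set; not every gene so selected is printed, and a few are not reported here. The members, the 51 gene lists and the named genes were chosen with earlier results of these data known.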

Additional observations from a re-analysis of the deposited data

Results flagged for a closer look

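In each group of 6 libraries with a mean of at least 100, the most distant library of every named gene was compared with the rest by Dixon's ratio, on log2(value + 1), at the 95% critical value. It was past that value in 18 of 217 groups. About 1 in 20 is past it by chance.

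Brain replicate 2 accounted for 7 of the 18. It was low for Tnf (20.5 against 1344 to 4185 in the other brain libraries), Il1r1 (327.2 against 2659 to 4805), Foxj1 (361.3 against 2261 to 5343), Col3a1 (5181 against 57999.8 to 172160.2), Olig1 (4141 against 10613 to 16740.0) and Stab1 (339.1 against 4464 to 15962). It was high for Il33 (16762 against 3826 to 6451). The same library had the highest share of choroid plexus and ependymal markers and the lowest of fibroblast and mural markers.

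Brain replicate 6, the library with the most microglial transcripts, was high for Fcrls (106659.9 against 24893 to 37625), Ccl3 (18004 against 2608 to 5033) and S100a8 (4949.5 against 339.1 to 827.5). Brain replicate 5 was low for Gpnmb (11779.6 against 37158 to 73038) and Zbp1 (80.0 against 302.8 to 624.0), and brain replicate 1 had no read of Tpsab1 against 294.4 to 2012 elsewhere.

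Among the blood libraries, replicate 6 was high for Apoe (28188 against 15967 to 17925) and had 0 for Lpl against 40.5 to 183.2. Blood replicate 3 was low for Klra1 (919.3 against 2289 to 3914), replicate 2 had 0 for Lag3 against 34.7 to 249.5, and replicate 4 was the only one with Lama1 (912.4 against 0).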

How the results depend on the processing

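Over 149 named and tested genes and all alternatives, 3773 of 3854 log2 differences kept their direction and their side of the threshold, 55 no longer passed, 17 newly passed and 9 changed sign. The 9 belonged to genes that did not pass as reported: Rora (-0.27 with equal library totals, -0.17 with TMM scaling, -0.26 in batch 1 alone, -0.35 with edgeR) and, in batch 1 alone, Thy1 (0.49), Snap25 (-0.043), P2ry12 (-0.64), Mki67 (0.73) and Il17rb (-0.36). The cause was not tested. Genes that passed as reported and not in 1 batch alone were 7 in batch 1 (Ccl3, Tnf, P2rx7, Itgb5, Havcr2, Cfp and Car9) and 13 in batch 2, among them Itgam, Itgae, Ace, Pf4, Prss34, Cma1 and Pecam1.

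The stricter filter, at least 100 in 6 of the 12 libraries, tested 10838 genes and left 2916 higher and 1643 lower. Higher and lower counts were 5009 and 2150 with a pseudocount of 0.5, 6102 and 2256 with no filter, 4383 and 2978 with equal library totals, 4554 and 2859 with TMM scaling, 5690 and 2574 with the 12 libraries alone, 6045 and 2772 with library quality weights, 4141 and 2816 with edgeR and 5355 and 2084 with DESeq2. Leaving out 1 library gave 4835 to 5248 higher and 1993 to 2215 lower. Per lymphocyte transcript, leaving out 1 library gave 12 to 14 higher and 1 to 2 lower genes, the second being Gzma without brain replicate 6; Ifng, Bcl11b, Il18r1 and Cxcr6 also crossed the threshold under some alternatives.

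Whether same-numbered brain and blood libraries share an animal is not in the labels, and with so few libraries per batch the values cannot decide it. Deviations of same-numbered brain and blood libraries correlated at -0.04 to 0.19 (6 pairs) and differently numbered ones at -0.17 to 0.12 (12 pairs). Of 6 blood libraries, 2 matched their own number best. In batch 1 the same-numbered pairs were at 0.05, 0.19 and 0.12. Blood replicates 1 and 3 there best matched brain replicates 3 and 1, at 0.06 and 0.12, and those 2 brain libraries are nearly alike. With a replicate block, 5672 genes were higher and 2508 lower, and S1pr1 passed (adjusted p = 0.0102, limma), as it did in the fit of the 12 libraries alone (adjusted p = 0.00383, limma).

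Depth limits lymphocyte genes in brain unequally: the 6 brain libraries together held 60 reads of Il2ra, 594 of Lck and 1413 of Itgb7.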
